A study of Saccharomyces cerevisiae with 8 samples.

Results

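Distal to the amplified core that 4 evolved yeast strains share, the right arm of chromosome XI carries a run of genes that 3 of the strains amplified and the fourth, DGY1741, did not. Protein-coding genes from YKR051W to the chromosome end were taken, leaving out PTR2, PCK1, BAS1, KTR2, MET1, UTP30, RPF2 and genes whose names start with RPL or RPS. This gave 49 genes of 6600 protein-coding genes in the tables, out of 58 genes in the stretch. All derive from FY4 / S288C yeast, Saccharomyces cerevisiae, carry a fluorescent reporter cassette at the GAP1 locus by the study's methods, and were grown to steady state in glutamine-limited chemostats, cultures fed by a constant inflow of medium.

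DGY1726, called Trans, carries by the study's account a transposon-mediated tandem duplication from TOF2 to GAP1. This duplication sits within a translocation of the chromosome XI end to chromosome VIII. A further segment on chromosome V is also amplified. GAP1 lies before YKR051W on the chromosome, so the genes taken here lie outside the tandem duplication. DGY1735, called ODIRA_A, carries a triplication that reaches SIR1. DGY1743, called ODIRA_B, carries a triplication that reaches ESL2. DGY1741, called ComQuad, is amplified only in the core up to TRK2, the gene just before YKR051W, and served as the common denominator. Each strain is 1 evolved clone, so that a difference between strains cannot be told apart from other mutations of the clone. The 2 replicate cultures of a strain give the spread. In the study, DGY1741 and DGY1743 come from a later time point of the evolution experiment, and DGY1726 and DGY1735 from an earlier one. Ratios between a later and an earlier strain therefore also cannot be told apart from the length of evolution. Cycloheximide was given to every culture shortly before harvest. The ancestor was not analysed here.

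A copy number variant is a stretch of chromosome present in more or fewer copies than in the ancestor, and extra copies of a gene give extra templates for transcription. In glutamine-limited medium, variants that amplify GAP1, a general amino acid permease gene on the right arm of chromosome XI, arise repeatedly, and neighbouring genes are carried along. In origin-dependent inverted-repeat amplification (ODIRA), a replication fork that turns back at short inverted repeats yields a triplication whose middle copy is inverted, with its limits near such repeats.

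The RNA of 8 libraries was counted, with 9125509 to 13205947 reads on protein-coding genes per library. The 49 genes took 1.08% and 1.07% of those counts in the DGY1726 libraries, 1.58% and 1.57% in DGY1735, 1.34% and 1.24% in DGY1743, against 0.533% and 0.539% in DGY1741. Both DGY1743 libraries stood apart in having 13.2% and 19.2% of the counts on mitochondrially encoded genes, where every other library had under 0.1%. These counts are part of the total from which the shares above were taken, which lowers the DGY1743 shares. Normalization factors were also set from genes outside the mitochondrial genome, chromosome XI and the amplified segment of chromosome V. With them, the median ratio of DGY1743 to DGY1741 below was 1.62 in place of 1.61 on the log2 scale. For the ratios to DGY1741 below, a smaller share of cells carrying a segment and less RNA per cell cannot be told apart in these cultures.

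The study's distal limits of the DGY1735 and DGY1743 segments fall in 2 short intervals, and the limits at the other side were not searched. The limits of the DGY1741 segment, which the study also assigns to ODIRA, were not searched either. For each interval the longest perfect inverted repeat with arms at most 100 bases apart was read from the R64 genome. Such repeats were taken since this kind of segment ends near them. Arms are in capitals and the bases between them in lower case, on the plus strand.
Between ESL2 and PCK1, chrXI:630987-631013: CTTACTTCTtaaatatacAGAAGTAAG
Within SIR1, chrXI:642130-642215: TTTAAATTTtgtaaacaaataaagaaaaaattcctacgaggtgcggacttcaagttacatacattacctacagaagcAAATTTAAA
Both have arms of 9 bases. Arms at least this long were found in 35.2% of 864 windows of chromosome XI with the 771 bases of the interval between ESL2 and PCK1, and in 67.8% of 339 windows with the 1965 bases of SIR1. The repeats are a description of the sequence at the limits and are common on the chromosome. No test links them to the breakpoints.

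Most of the genes up to ESL2, the last gene that all 3 strains amplified by the study's account, were higher in each amplified strain than in DGY1741, by ratios that varied from gene to gene. Of the 49, 47 had a mean of at least 100 counts and were tested. In DGY1726 the median log2 ratio to DGY1741 over the 40 tested genes up to ESL2 was 0.99 (1.99-fold), with library medians of 1.02 and 1.01. DGY1735 gave 1.62 (3.08-fold), with library medians of 1.63 and 1.61, and DGY1743 gave 1.61 (3.05-fold), with library medians of 1.65 and 1.65. The median over all 5527 tested genes was 0.01 in DGY1726, 0.00 in DGY1735 and -0.01 in DGY1743. The 210 tested genes of the left arm of the same chromosome had medians of 0.01, 0.04 and 0.03 in the same order of strains.

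In DGY1726, 42 of the 47 tested genes were called higher than in DGY1741 at an adjusted p under 0.05 and 0 lower. Over all tested genes 19.5% were called higher and 18.9% lower in this comparison. In DGY1735, 42 were called higher and 0 lower, where 17.8% of all genes were called higher and 18.2% lower. In DGY1743, 40 were called higher and 0 lower, where 13.6% of all genes were called higher and 9.44% lower. The 3 comparisons share the DGY1741 libraries. At the inner limit lies TRK2, a potassium transporter gene that the study places inside the amplified core of all 4 strains. The study puts the DGY1741 breakpoint just downstream of TRK2. It saw no obvious disruption of expression there, though the 3′ end of the transcript may be truncated. The log2 ratios of TRK2 to DGY1741 were 0.90 ± 0.14, 1.05 ± 0.14 and 0.99 ± 0.14 (SE) in DGY1726, DGY1735 and DGY1743. TRK2 was thus already lower in DGY1741, with 61.6 and 78.9 CPM, although the study has it amplified there too. The cause was not tested. The next gene YKR051W, of unknown function, had 0.93 ± 0.11, 1.77 ± 0.11 and 1.47 ± 0.11.

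The higher levels extended over the whole stretch up to ESL2. In blocks of 10 consecutive tested genes from YKR051W to ESL2, the block medians in DGY1726 were 0.92, 1.15, 1.15 and 1.01 on the log2 scale. In DGY1735 they were 1.52, 1.83, 1.64 and 1.58, and in DGY1743 they were 1.58, 1.64, 1.72 and 1.61. The spread of single genes about these levels differed among the strains. The interquartile range of the log2 ratios up to ESL2 was 0.49 in DGY1726, 0.39 in DGY1735 and 0.21 in DGY1743, against 0.57, 0.54 and 0.43 over all tested genes.

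**Figure D1:**
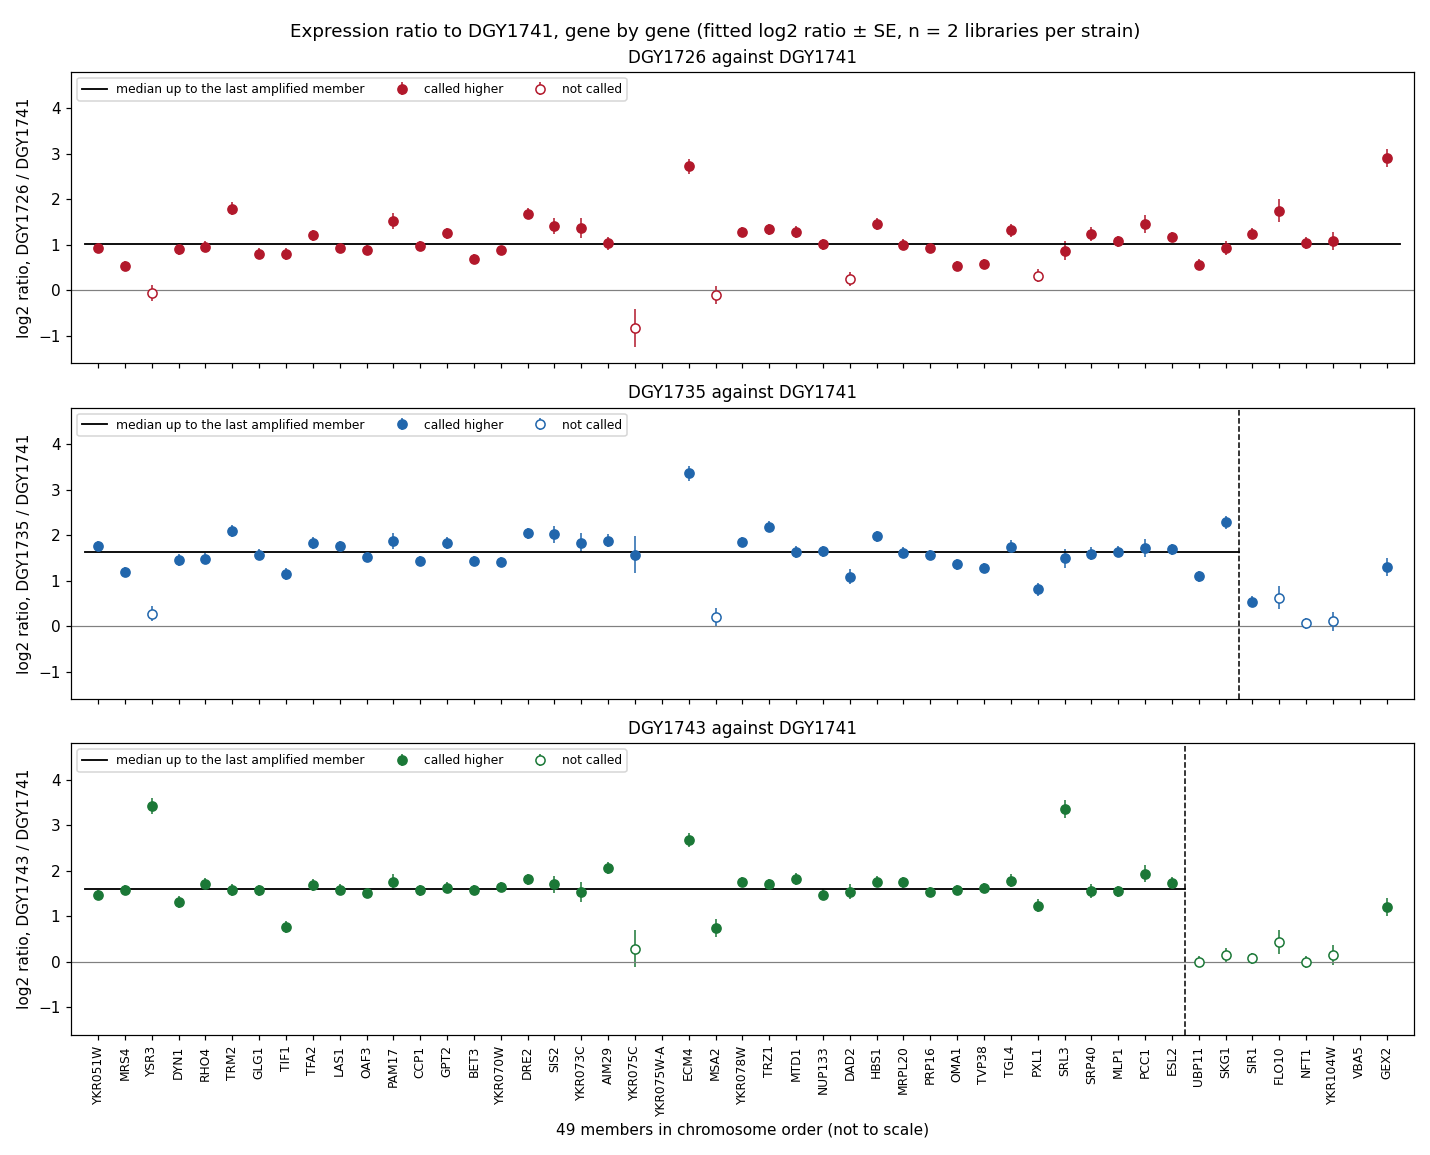
Fitted log2 ratio of DGY1726, DGY1735 and DGY1743 to DGY1741 (y axis, bars ± SE) for each member in chromosome order (x axis), with filled points called higher and open points not called. The solid line is the median up to the last amplified member and the dashed line the located end: the median was 1.02 in DGY1726, where single genes ran from -0.83 (YKR075C) to 2.91 (GEX2, the last gene), and the ratios dropped after SKG1 in DGY1735 and dropped after ESL2 in DGY1743. YKR075W-A and VBA5 were not tested.

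Of all tested genes up to ESL2, 87.5% were called higher in DGY1726, 95% in DGY1735 and 97.5% in DGY1743. A role list with every gene called is therefore near the share of the whole stretch. By the role of the product, all 5 genes of mitochondrial proteins were called higher in each strain. The list median was 0.98 in DGY1726, 1.44 in DGY1735 and 1.58 in DGY1743. They are MRS4 (iron import), PAM17 (protein import), CCP1 (cytochrome c peroxidase), MRPL20 (a mitochondrial ribosomal protein) and OMA1 (an inner membrane protease). CCP1 had 336 and 371 CPM (counts scaled by library size) in DGY1726, 466 and 499 in DGY1735 and 554 and 506 in DGY1743, against 176 and 181 in DGY1741, so that no amplified library overlapped DGY1741. MRS4 and OMA1 were the lowest of the list in DGY1726, at 0.54 and 0.54, and MRPL20 lay at 1.00 there.

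All 10 genes of RNA metabolism, translation and transcription were called higher in each strain, and the list median was 1.22 in DGY1726, 1.73 in DGY1735 and 1.58 in DGY1743. The list holds the tRNA enzymes TRM2 and TRZ1, the translation initiation factor TIF1, the transcription factor subunit TFA2, the ribosomal RNA endonuclease LAS1, the repressor OAF3, the ribosome rescue factor HBS1, the splicing helicase PRP16, the nucleolar protein SRP40 and PCC1 of the tRNA-modifying KEOPS complex. HBS1 stood at 1.47 ± 0.13 on the log2 scale for DGY1726, 1.97 ± 0.13 for DGY1735 and 1.76 ± 0.13 for DGY1743. Both genes of the nuclear pore and its basket were called higher in every strain, with MLP1 at 1.08, 1.64 and 1.55 and NUP133 at 1.02, 1.64 and 1.48 in DGY1726, DGY1735 and DGY1743.

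The 5 genes of metabolism and cofactors were called higher in each strain, and the list median was 1.42 in DGY1726, 2.01 in DGY1735 and 1.81 in DGY1743. They are GLG1 (glycogen priming), DRE2 (iron-sulfur protein assembly), SIS2 (coenzyme A synthesis), ECM4 (a glutathione transferase) and MTD1 (folate-dependent one-carbon metabolism). Of the 5 genes of lipids and membrane traffic, 4 were called higher in DGY1726, 4 in DGY1735 and 5 in DGY1743, with medians of 0.70, 1.44 and 1.63. They are the sphingolipid phosphatase YSR3, the acyltransferase GPT2, the TRAPP vesicle-tethering subunit BET3, the Golgi protein TVP38 and the lipase TGL4, and the gene not called was YSR3 in both strains.

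The 6 genes of cell division, cytoskeleton and polarity had the lowest role medians up to ESL2, at 0.60 in DGY1726, 1.27 in DGY1735 and 1.43 in DGY1743. They are DYN1 (dynein heavy chain), RHO4 (a small GTPase), MSA2 (a regulator of G1 genes), DAD2 (a kinetochore subunit), PXL1 (a paxillin-like protein of growth sites) and SRL3 (a paralog of the G1 repressor WHI5). In DGY1726 3 of the 6 were called higher, in DGY1735 5 and in DGY1743 6. The genes without a call were MSA2, DAD2 and PXL1 in DGY1726, and MSA2 in DGY1735. The list mean in DGY1743 was 1.65, with SRL3 at 3.36. Role lists were chosen with earlier results known, so their ranking by median is a description only. DYN1 had 1330 and 1294 CPM in DGY1726, 1910 and 1896 in DGY1735 and 1752 and 1734 in DGY1743, against 742 and 658 in DGY1741.

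The remaining genes up to ESL2 are YKR051W, YKR070W, YKR073C, AIM29, YKR075C, YKR078W and ESL2, mostly of unknown function, and the untested YKR075W-A. Of the 7 tested, 6 were called higher in DGY1726, 7 in DGY1735 and 6 in DGY1743, with medians of 1.04, 1.77 and 1.66. The gene without a call was YKR075C in both cases. YKR075W-A, a dubious reading frame that lies inside YKR075C on the other strand, had at most 2.14 CPM in any library and is only counted here.

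No end of the DGY1726 segment was found before the last tested gene of the chromosome, GEX2, which shares sequence with a copy elsewhere. The last tested gene without such a copy was YKR104W, and it was called higher. The last amplified gene was located as the gene at which 2 levels, the median up to it and 0 after it, left the smallest summed deviation of the log2 ratios. In DGY1726 this was GEX2, the last member (R64, chrXI:661442-663289), in the fit and in each library alone. The 7 tested genes beyond ESL2 were all called higher than in DGY1741, with a median of 1.09 (2.13-fold). NFT1, a putative transporter gene, had 129 and 127 CPM in DGY1726, against 64.9 and 59.2 in DGY1741, a log2 ratio of 1.05 ± 0.12 (adjusted p = 5.21e-05). YKR104W, which is merged with NFT1 in other backgrounds, had 19.6 and 18.2 CPM against 10.1 and 7.64 CPM, a ratio of 1.09 ± 0.20.

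GEX2, a glutathione exchanger, had 62.0 and 60.1 CPM in DGY1726, 21.1 and 18.9 in DGY1735 and 15.4 and 22.0 in DGY1743, against 7.34 and 8.80 in DGY1741. Its ratio to DGY1741 was 2.91 ± 0.19 in DGY1726, 1.30 ± 0.20 in DGY1735 and 1.21 ± 0.20 in DGY1743, each called, so that GEX2 was higher also in both strains whose segments end before it. Of the stretches of 50 bases in GEX2, 60.2% recur elsewhere, mostly in its copy GEX1 at the left end of chromosome III. GEX1 had 41.2 and 38.8 CPM in DGY1726, 14.9 and 12.4 in DGY1735 and 9.24 and 17.2 in DGY1743, against 5.77 and 7.93 in DGY1741. Reads of the 2 genes cannot be told apart in those stretches, and the GEX2 values are uncertain for that reason. With the level after the end left free, the end in DGY1726 moved to YKR104W at 657756, with GEX2 alone after it at a higher level of 2.91.

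VBA5, an amino acid transporter gene between YKR104W and GEX2, was not tested, with 3.89 and 5.57 CPM in DGY1726, 3.21 and 2.78 in DGY1735 and 3.24 and 6.11 in DGY1743, against 2.23 and 6.33 in DGY1741. The libraries of each amplified strain overlapped those of DGY1741, and 72.9% of its stretches of 50 bases recur, mostly in VBA3 on chromosome III. FLO10, a flocculation gene of the cell surface, had 36.7 and 54.4 CPM in DGY1726, 19.04 and 22.5 in DGY1735 and 18.7 and 17.8 in DGY1743, against 9.98 and 16.9 in DGY1741. It was called higher in DGY1726, at 1.75 ± 0.25. Its ratio of 0.63 ± 0.25 in DGY1735 was not called (adjusted p = 0.073), and was called without DGY1741 replicate 2, at 1.06. Without DGY1726 replicate 1 it was called at 0.63 and without DGY1726 replicate 2 at 0.64. Of its stretches of 50 bases, 12.8% recur, within FLO10 itself.

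The DGY1735 segment ended after SKG1 (R64, chrXI:638901-639968), in the fit and in each library alone, and the next member, SIR1, starts at 640540. The 42 tested genes up to SKG1 had a median log2 ratio of 1.62, and the 5 tested genes after it 0.53. UBP11, a ubiquitin protease gene, had 132 and 124 CPM in DGY1735 and 84.4 and 92.8 in DGY1726, against 63.7 and 55.8 in DGY1741. Its ratio was 1.10 ± 0.12 in DGY1735 and 0.57 ± 0.12 in DGY1726, below the segment median in both strains by 0.52 and 0.45. SKG1, a cell wall gene, had 293 and 322 CPM in DGY1735, 111 and 131 in DGY1726 and 68.0 and 73.3 in DGY1743, against 53.4 and 73.3 in DGY1741. In DGY1735, where it is the last gene before the breakpoint, the ratio was 2.28 ± 0.15 (4.85-fold), above the segment median by 0.65 (adjusted p = 0.00449). By the study's account the SKG1 transcript is probably also disrupted by this breakpoint, and the counts do not say which part of the gene the reads cover.

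SIR1, a silencing gene in which the study places the breakpoint of DGY1735, had an intermediate level there, with 100.5 and 97.0 CPM in DGY1735 and 158 and 167 in DGY1726, against 66.8 and 69.6 in DGY1741. The DGY1735 libraries lay above both DGY1741 libraries and below both DGY1726 libraries. The ratio of DGY1735 to DGY1741 was 0.53 ± 0.12 (adjusted p = 0.00473), and 0.50 to 0.56 with any 1 library left out. The ratio of DGY1735 to DGY1726 was -0.71 ± 0.12 (adjusted p = 0.00614). The counts do not say which side of the breakpoint within SIR1 the reads came from. Beyond it, NFT1 had 58.6 and 70.9 CPM in DGY1735, against 64.9 and 59.2 in DGY1741, so that the libraries overlapped, and the ratio was 0.06 ± 0.13. YKR104W stood at 0.11 ± 0.21.

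The DGY1743 segment ended after ESL2 (R64, chrXI:626793-630380), in the fit and in each library alone, and the next member, UBP11, starts at 633026. The 7 tested genes after ESL2 had a median of 0.15 (1.11-fold), and 1 of them, GEX2, was called higher. With the genes left out by the rule added back, the located end moved by 1 gene to PCK1, which ends at 632801. The study places the breakpoint between ESL2 and PCK1, so PCK1 lies outside the segment by its account. PCC1 had 35.4 and 29.3 CPM in DGY1743, against 7.42 and 9.39 in DGY1741, a ratio of 1.94 ± 0.19. ESL2, whose product resembles human EST1A and EST1B, had 739 and 672 CPM, against 214 and 208 CPM in DGY1741, a ratio of 1.74 ± 0.12. For both genes the DGY1743 libraries lay far above DGY1741.

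From UBP11 on, the libraries of DGY1743 and DGY1741 overlapped at each tested gene except FLO10 and GEX2. UBP11 had 55.6 and 64.4 CPM in DGY1743, against 63.7 and 55.8 in DGY1741, a ratio of 0.01 ± 0.12. The ratio was 0.16 ± 0.15 for SKG1 and 0.08 ± 0.12 for SIR1, where DGY1743 had 80.1 and 64.4 CPM. For FLO10 it was 0.43 ± 0.26 and not called.

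**Figure D2:**
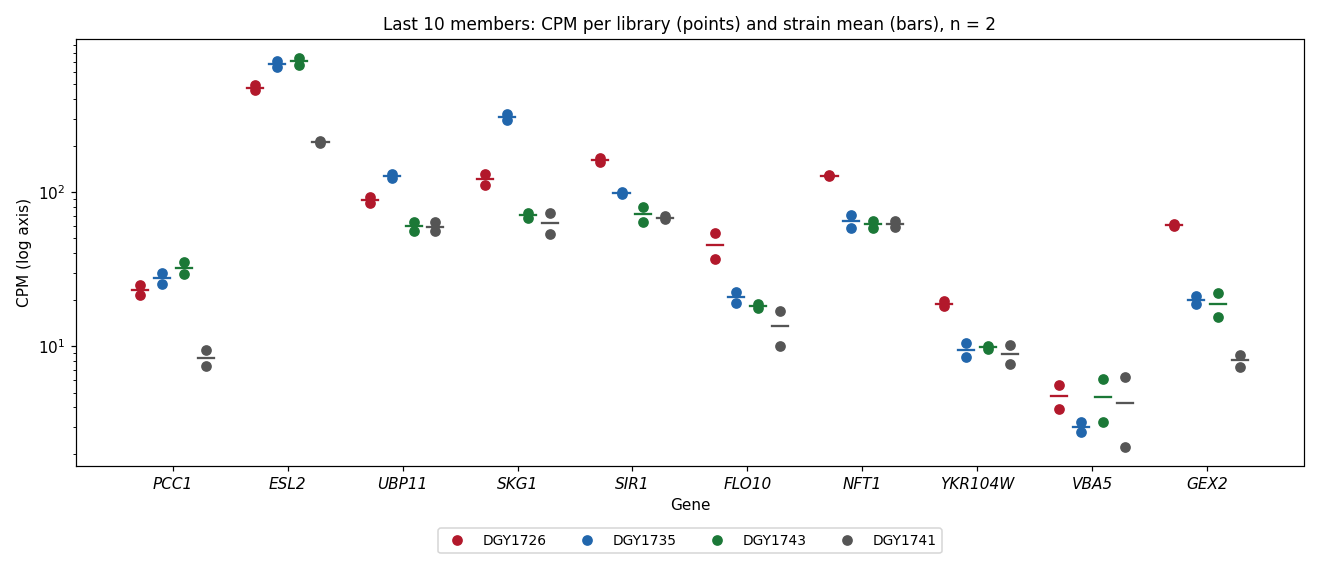
CPM per library on a log axis (points) and the mean of the 2 libraries (bars) for the last 10 members in chromosome order, with DGY1726, DGY1735 and DGY1743 to the left of DGY1741. All 3 amplified strains lie above DGY1741 at ESL2, DGY1743 joins DGY1741 at UBP11, DGY1735 lies between DGY1726 and DGY1741 at SIR1, and DGY1726 alone stays high at NFT1 with 129 and 127 CPM.

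A minority of genes did not share the ratio of their segment. After the segment median was added as an offset, 17 of 47 genes were off it in DGY1726 (7 above, 10 below, 36.2%), 14 of 42 in DGY1735 (6 above, 8 below, 33.3%) and 7 of 40 in DGY1743 (4 above, 3 below, 17.5%). Among the 5471 tested genes outside the distal stretch, the same test against a log2 ratio of 0 called 37.7% in DGY1726, 35.2% in DGY1735 and 22.2% in DGY1743. The shares among the members lay near these backgrounds. Within 0.5 of the segment median on the log2 scale lay 36 genes in DGY1726, 34 in DGY1735 and 34 in DGY1743. Without DGY1741 replicate 1 the counts off the median fell to 9 in DGY1726 and 6 in DGY1735, and DGY1735 gave 9 without DGY1741 replicate 2 and 9 without its own replicate 1.

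ECM4, the glutathione transferase gene, was among the 3 genes furthest above the segment median in each of the 3 strains. It had 184 and 184 CPM in DGY1726, 251 and 319 in DGY1735 and 199.5 and 155 in DGY1743, against 30.1 and 25.5 in DGY1741. The ratios were 2.73 ± 0.16 (6.63-fold) in DGY1726, 3.36 ± 0.16 (10.3-fold) in DGY1735 and 2.68 ± 0.16 (6.39-fold) in DGY1743, which is 1.71, 1.74 and 1.07 above the segment medians in that order. All 3 ratios use the same DGY1741 libraries, in which ECM4 was low. The study instead compared RNA with the ancestor's level multiplied by copy number. By that measure it lists ECM4 among the genes of lowered transcription efficiency in every strain, with PAM17, MTD1 and TIF1. The ratios to DGY1741 do not measure this efficiency.

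TRM2, a tRNA methyltransferase gene, had 198 and 192 CPM in DGY1726, 265 and 213 in DGY1735 and 185 and 150.2 in DGY1743, against 53.7 and 58.5 in DGY1741. It lay 0.78 above the median in DGY1726 (adjusted p = 0.000928) and 0.46 above it in DGY1735, while in DGY1743 it lay at -0.03 from it. TRZ1, the tRNA 3′-end nuclease gene, had 239 and 196 CPM in DGY1726, 394 and 386 in DGY1735 and 285 and 272 in DGY1743, against 90.7 and 80.8 in DGY1741, and was 0.56 above the median in DGY1735. The iron-sulfur gene DRE2 was above the median in DGY1726 by 0.67 and in DGY1735 by 0.41. HBS1 was above it in DGY1726 by 0.45 and in DGY1735 by 0.35, PAM17 in DGY1726 by 0.52 and AIM29 in DGY1743 by 0.45.

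YSR3 and SRL3 had the highest ratios to DGY1741 in DGY1743. YSR3, which removes phosphate from long-chain sphingoid base phosphates, had 32.1 and 39.0 CPM in DGY1726, 41.2 and 48.4 in DGY1735 and 341 and 453 in DGY1743, against 41.8 and 32.4 in DGY1741. Its ratio to DGY1741 was 3.42 ± 0.18 (10.7-fold) in DGY1743, and -0.06 ± 0.18 in DGY1726 and 0.28 ± 0.17 in DGY1735, where it was not called. The libraries of DGY1726 and DGY1735 overlapped those of DGY1741 although YSR3 lies well inside all 3 segments. Its distance from the segment median was -1.08 in DGY1726, -1.35 in DGY1735 and 1.81 in DGY1743. SRL3 had 16.4 and 24.7 CPM in DGY1726, 29.3 and 33.0 in DGY1735 and 106 and 122 in DGY1743, against 9.73 and 12.4 in DGY1741. The ratio was 3.36 ± 0.20 (10.2-fold) in DGY1743, 1.75 above the median, and lay 0.14 below the median in DGY1726 and in DGY1735, where neither distance was called.

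MSA2 was below the segment median in all 3 strains, and DAD2 and PXL1 were below it in DGY1726 and DGY1735. MSA2, whose product binds G1 promoters, had 20.9 and 26.3 CPM in DGY1726, 28.2 and 29.9 in DGY1735 and 33.6 and 50.7 in DGY1743, against 24.9 and 25.5 in DGY1741. It was not called against DGY1741 in DGY1726 (-0.10 ± 0.20) or DGY1735 (0.21 ± 0.20), and it was below the segment median in all 3 strains, by 1.11, 1.41 and 0.87 in DGY1726, DGY1735 and DGY1743. Its call in DGY1743 (0.74 ± 0.19) was lost without DGY1741 replicate 1 (0.72), without DGY1741 replicate 2 (0.76) and without DGY1743 replicate 2 (0.42). DAD2, a subunit of the complex that ties kinetochores to microtubules, had 53.1 and 66.4 CPM in DGY1726, 103 and 109.7 in DGY1735 and 122 and 169 in DGY1743, against 48.2 and 52.0 in DGY1741. PXL1 had 148 and 113 CPM in DGY1726, 195 and 171 in DGY1735 and 240.2 and 248 in DGY1743, against 113 and 94.7 in DGY1741. Both genes were below the median in DGY1726 (by 0.76 and 0.69) and in DGY1735 (by 0.54 and 0.81), and in DGY1743 their distances of -0.07 and -0.38 were not called.

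YKR075C, a gene of unknown function that is regulated by glucose, varied most between cultures. It had 45.7 and 69.1 CPM in DGY1726, 466 and 139 in DGY1735 and 105 and 144 in DGY1743, against 110.3 and 93.1 in DGY1741. Replicate 1 of DGY1735 was the highest library by far, and both DGY1726 libraries lay below both DGY1741 libraries. The ratio was 1.57 ± 0.41 in DGY1735 (adjusted p = 0.0101), 0.29 ± 0.40 in DGY1743 and -0.83 ± 0.41 in DGY1726, and the last was called lower, at -0.83, when either DGY1735 library was left out of the fit or the 4 libraries of the pair were fitted alone.

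TIF1, an eIF4A gene and the member with the highest level per length, had 1150 and 1088 CPM in DGY1726, 1554 and 1286 in DGY1735 and 1139 and 1042 in DGY1743, against 656 and 630 in DGY1741. Its ratio was 0.80 ± 0.14, 1.14 ± 0.14 and 0.76 ± 0.14 in DGY1726, DGY1735 and DGY1743, below the segment median in DGY1735 by 0.48 and in DGY1743 by 0.84. Of its stretches of 50 bases, 84.9% recur in TIF2 on chromosome X, which had 1080 and 1012 CPM in DGY1726, 1397 and 1155 in DGY1735 and 1016 and 919 in DGY1743, against 633 and 619 in DGY1741. The copies cannot be told apart over that sequence, so the TIF1 ratio is uncertain.

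The others below the median were MRS4 (by 0.47 in DGY1726 and 0.44 in DGY1735), TVP38 (by 0.44 and 0.35 in the same strains), and OMA1 (by 0.48) and BET3 (by 0.32) in DGY1726. The remaining genes up to ESL2, which are YKR051W, DYN1, RHO4, GLG1, TFA2, LAS1, OAF3, CCP1, GPT2, YKR070W, SIS2, YKR073C, YKR078W, MTD1, NUP133, MRPL20, PRP16, TGL4, SRP40, MLP1, PCC1 and ESL2, were not off the median in any strain.

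**Figure D3:**
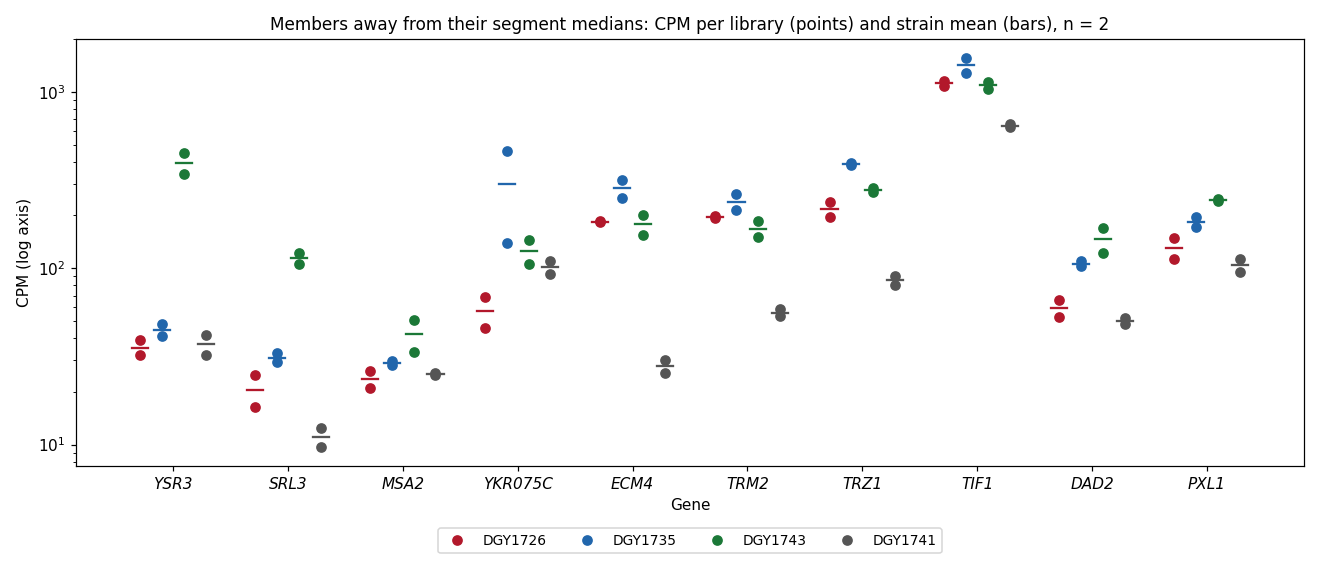
CPM per library on a log axis (points) and the mean of the 2 libraries (bars) for 10 members chosen by their distance from a segment median or their difference between strains, with DGY1726, DGY1735 and DGY1743 to the left of DGY1741. YSR3 is high in DGY1743 alone, and SRL3 is highest in DGY1743. ECM4 is higher in all 3 strains than in DGY1741. YKR075C spreads widely between the 2 DGY1735 libraries, at 466 and 139 CPM.

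Set directly against each other, DGY1735 exceeded DGY1726 along the whole stretch up to SKG1. The median log2 ratio over the 40 tested genes up to ESL2 was 0.57 (1.48-fold), and every one of the 40 was positive. Up to SKG1, 25 of 42 genes were called higher in DGY1735 and 0 lower, and the 5 tested genes from SIR1 on were all called lower, with a median of -0.98 (0.505-fold). Over all tested genes 0.959% were called higher and 1.5% lower in this pair. FLO10 was at -1.13, NFT1 at -0.98, YKR104W at -0.98 and GEX2 at -1.62. Without DGY1726 replicate 1 the pair gave 19 calls and without DGY1726 replicate 2 it gave 18, in place of 30.

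The called genes up to ESL2 with the largest differences in this pair were YKR075C (2.39 ± 0.42), TRZ1 (0.84 ± 0.12, adjusted p = 0.00203) and AIM29 (0.84 ± 0.14, adjusted p = 0.00501). The value of YKR075C was 1.27 with DGY1735 replicate 1 left out, and its call was lost with the 4 libraries of the pair fitted alone. AIM29, whose loss raises the loss of mitochondrial DNA, had 216 and 197 CPM in DGY1735 and 199 and 271 in DGY1743, 114 and 117 in DGY1726 and 57.2 and 55.2 in DGY1741. Beyond ESL2, SKG1 was higher in DGY1735 by 1.35 ± 0.15.

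DGY1743 also exceeded DGY1726 up to ESL2, by a median of 0.55 (1.46-fold), with 29 of 40 genes called higher and 0 lower. The 7 tested genes beyond ESL2 were all called lower, with a median of -1.04 (0.485-fold). Over all tested genes 15% were called higher and 13.3% lower. The largest differences up to ESL2 were YSR3 at 3.48 ± 0.18 (11.2-fold), SRL3 at 2.48 ± 0.19 and DAD2 at 1.29 ± 0.16. All 6 genes of cell division, cytoskeleton and polarity and all 5 of lipids and membrane traffic were called higher in DGY1743. Their list medians were 0.87 and 0.89, where the 10 genes of RNA metabolism, translation and transcription had 0.42 with 5 called. TRM2 (-0.22 ± 0.13), ECM4 (-0.05 ± 0.15) and TIF1 (-0.04 ± 0.13) lay below 0 and were not called.

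DGY1735 and DGY1743 had no shift between them up to ESL2, with a median log2 ratio of 0.02 and a range of -0.03 to 0.02 over the 4 pairs of single libraries. Of the 40 genes, 4 were called higher in DGY1735 and 4 lower, and over all tested genes 10.8% were called higher and 13.2% lower. Higher in DGY1735 were YKR075C (1.27), ECM4 (0.68), TRM2 (0.51) and TRZ1 (0.49). Lower were YSR3 (-3.14 ± 0.18), SRL3 (-1.87 ± 0.19), MRS4 (-0.40) and TVP38 (-0.35). The YKR075C difference was 0.15 without DGY1735 replicate 1, and it lost its call also when any DGY1741 or DGY1743 library was left out.

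From UBP11 to SIR1, which lie between or at the distal limits of the DGY1735 and DGY1743 segments, the pair differed by uneven ratios. UBP11 was higher in DGY1735 than in DGY1743 by 1.09 ± 0.12 (2.13-fold, adjusted p = 6.94e-05), SKG1 by 2.12 ± 0.15 (4.36-fold) and SIR1 by 0.45 ± 0.12. From FLO10 on, no gene was called in this pair, with ratios of 0.19 ± 0.25 for FLO10, 0.06 ± 0.13 for NFT1, -0.04 ± 0.21 for YKR104W and 0.09 ± 0.19 for GEX2. The pair gave 11 calls in all, 6 without DGY1735 replicate 1 and 4 without DGY1743 replicate 2.

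**Figure D4:**
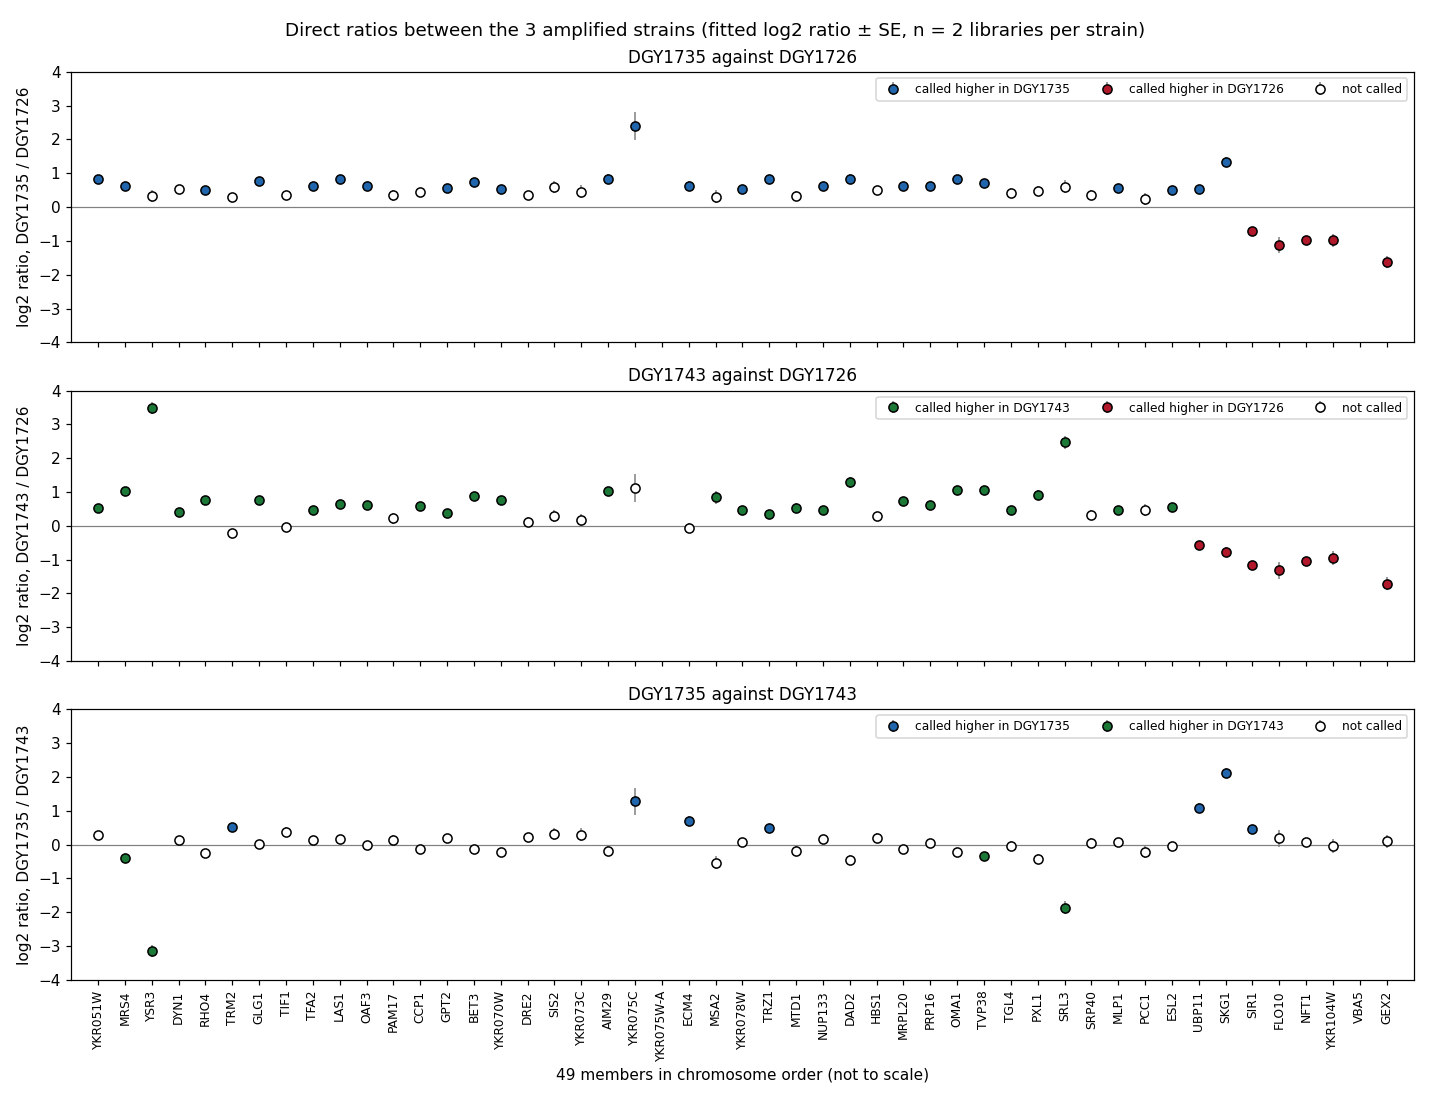
Fitted log2 ratio (y axis, bars ± SE) between each pair of the 3 amplified strains for each member in chromosome order (x axis), with the point filled in the colour of the strain in which it was called higher and open where it was not called. DGY1735 up to SKG1 and DGY1743 up to ESL2 lie mostly above DGY1726, and both lie below it after that, by medians of -0.98 and -1.04, and differ from each other mainly at YSR3, SRL3, YKR075C and from UBP11 to SIR1.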

How the data were processed

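RNA-seq libraries of 4 strains, 2 replicate cultures each, were analysed, with groups and replicate numbers taken from the sample titles. The deposited tables hold raw counts of reads per annotated feature (unit: counts), which the authors made from single-end reads of 50 bases with cutadapt, STAR and strand-specific bedtools coverage against the R64 annotation, after filtering reads of tRNA, rRNA, snoRNA and snRNA. The treatment of reads that align equally well to several places is not given in the sources used here. The labels name polyadenylated RNA and the study's methods state no such selection. The counts are unnormalized as deposited. Their depth is given above, and replicates of a strain differed by 16.1 to 55.8 chi-square units per degree of freedom, so that no library was counted again and precision rests on 2 cultures, not on counting error.

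Protein-coding gene rows with a mean of at least 100 counts entered edgeR (version 4.0.16, R version 4.3.3) with TMM scaling and a quasi-likelihood test, 8 libraries in 1 fit with a mean per strain, Benjamini-Hochberg adjustment over all 5527 tested genes and a threshold of 0.05. Adjusted p-values in the text come from this test, SE is the log2 ratio divided by the square root of F, and CPM uses TMM-scaled library sizes. The study tested strains with DESeq2. The text names the genes beside a segment limit (the last 2 inside and the first 3 outside), the 3 furthest above and below a segment median and the 3 called genes that differ most between 2 strains, and others by role list. The members and lists were chosen with earlier results of these data known. The fit was checked on simulated counts. Alternatives were other scalings and filters, DESeq2 1.42.0, a fit of 4 libraries, coding-sequence rows, a threshold of 0.01, a replicate block and leaving out each library.

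Copies were searched by exact matches of 50 bases in the R64 genome, whose sequence lengths equal those of the files, and all 49 genes started with ATG and ended with a stop codon at the deposited limits. Protein sequences were not used here.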

Additional observations from a re-analysis of the deposited data

Results flagged for a closer look

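The largest differences between amplified strains within the shared stretch were set apart by the direct test between the strains. YSR3 was higher in DGY1743 than in DGY1726 by a log2 ratio of 3.48, and its ratio of DGY1735 to DGY1743 was -3.14. SRL3 gave 2.48 and -1.87 in the same comparisons. DAD2 was higher in DGY1743 than in DGY1726 by 1.29. YKR075C was higher in DGY1735 than in DGY1726 by 2.39 and higher in DGY1735 than in DGY1743 by 1.27, where 1 DGY1735 library carried most of the difference. TRZ1 and AIM29 were each higher in DGY1735 than in DGY1726 by 0.84.

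Noncoding genes of the same stretch were in no comparison above, and reads of snoRNA and tRNA had been filtered by the authors, so that their counts are what was left after that filter. One is the snoRNA gene snR42, between UTP30 and TFA2. It had 5.63 and 5.92 CPM in DGY1726, 9.30 and 10.1 in DGY1735 and 7.81 and 9.26 in DGY1743, against 3.38 and 2.98 in DGY1741. The ratio of the mean CPM to that of DGY1741 was 1.82 in DGY1726, 3.05 in DGY1735 and 2.68 in DGY1743, with no overlap between the libraries of each strain and those of DGY1741, and no test was run on it. The other, the tRNA gene tK(UUU)K, had 6.75 and 7.00 CPM in DGY1726, 10.2 and 6.32 in DGY1735 and 4.76 and 7.94 in DGY1743, against 7.18 and 4.88 in DGY1741, and the libraries of every strain overlapped those of DGY1741. The cause was not tested.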

How the results depend on the processing

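The calls against DGY1741 were the least dependent on settings: of 42, 42 and 40 genes called higher in DGY1726, DGY1735 and DGY1743, 41, 41 and 39 were called in each of 17 settings. Between strains, 9 of 25 higher and 2 of 5 lower calls of DGY1735 against DGY1726, 19 of 29 and 7 of 7 of DGY1743 against DGY1726, and 2 of 7 and 2 of 4 of DGY1735 against DGY1743 were. At a threshold of 0.01, DGY1735 against DGY1726 gave 16 calls in place of 30, DGY1735 against DGY1743 gave 5 in place of 11 (6 with the 4 libraries of the pair), and 8 genes were off the median in DGY1735 in place of 14. With the mean in place of the median, the log2 ratio was 1.67 for DGY1743 against DGY1741, 0.61 for DGY1735 against DGY1726, 0.68 for DGY1743 against DGY1726 and -0.078 for DGY1735 against DGY1743. The located end moved to 657756 in DGY1726 with a free level and to 632801 in DGY1743 with the left-out genes added back. The latter lies past the DGY1743 limit that the study gives.

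Leaving out 1 library at a time, the medians ran from 0.99 to 1.02 (DGY1726), 1.57 to 1.67 (DGY1735) and 1.61 to 1.65 (DGY1743) against DGY1741, 0.54 to 0.58 for DGY1735 against DGY1726, 0.50 to 0.59 for DGY1743 against DGY1726 and -0.0059 to 0.045 for DGY1735 against DGY1743. Calls ran from 41 to 43, 41 to 43 and 39 to 40 against DGY1741, 18 to 32, 31 to 37 and 4 to 13 between strains in the same order, and genes off the median from 9 to 19, 6 to 15 and 5 to 8 in DGY1726, DGY1735 and DGY1743. Genes near 0 changed sign without a call when 1 library was left out: MSA2 ran from -0.27 to 0.063 and YSR3 from -0.24 to 0.13 in DGY1726, NFT1 from -0.081 to 0.19 in DGY1735, and SKG1 from -0.054 to 0.40, SIR1 from -0.082 to 0.23 and UBP11 from -0.10 to 0.11 in DGY1743. UBP11 in DGY1743 was -0.0018 with DESeq2 size factors and with DESeq2, -0.0099 without a filter and -0.0061 with filterByExpr. The cause was not tested. FLO10 in DGY1735 was called by DESeq2 (adjusted p = 0.0344), with adjusted p from 0.0195 upward over its alternatives.

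Replicate numbers showed no pairing common to all strains, as the correlations of same-numbered deviations ran from -0.25 to 0.40 over the 6 pairs of strains. Whether some strains shared a batch cannot be told from 2 libraries per strain. With the replicate number as a block, DGY1735 against DGY1726 gave 33 calls and DGY1735 against DGY1743 gave 13, FLO10 in DGY1735 became called (0.64) and YKR075C in DGY1735 against DGY1743 lost its call (1.19). Every comparison rests on 2 cultures per strain. Genes with 50-base copies elsewhere (TIF1, GEX2, VBA5) cannot be resolved.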
